A study of Mus musculus with 2 samples.

Results

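The complement system was examined in mouse embryonic fibroblasts (MEFs, connective tissue cells grown from embryos) through 9 of its genes, namely C1r, C1s, C4b, C3, Cfb, Masp1, Serping1, Cd55 and Cd59a. They were chosen by name, and every non-control probe of the arrays that carries one of these gene names was taken, which gave 18 probes for 9 of the 27579 genes with a usable probe. In both RNAs the cells came from untreated C57BL/6J mice. One was labelled LATS2-/- (KO), the other LATS2+/+ (WT), and Lats2 encodes a kinase of the Hippo pathway. Part of the labels spell the genotype LAT2, and neither the age of the embryos nor the number of animals behind an RNA was given. Both RNAs were hybridised together to Agilent whole mouse genome arrays of long oligonucleotide probes. On 1 array the KO RNA carried the dye Cy5 and on the other it carried Cy3, so the pair was taken as a technical dye swap with 1 replicate per genotype. The question was how far complement transcripts differed between these RNAs, and with no second RNA of either genotype no difference has a biological replicate behind it.

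Complement is a cascade of blood and tissue proteins that marks microbes and damaged cells for removal. Its classical branch starts when C1q recruits the proteases C1r and C1s, its lectin branch starts with the MASP proteases on mannose-binding lectins, ficolins and collectins, and both cut C4 and C2. All branches meet at C3, and regulators such as C1 inhibitor, CD55 and CD59 keep the cascade off the body's own cells. The liver makes most of the plasma proteins, and fibroblasts also make several of them.

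Values are given as the log2 ratio of the RNA labelled KO over the RNA labelled WT, in which 1 stands for a 2-fold higher and -1 for a 2-fold lower level, and the error is the SD between the arrays, which covers hybridisation and dye error only. A gene was called when its brightest probe passed 2-fold one way on each of the 2 arrays and when the RNA with more of it lay well above background, by the flag of the scanner software, on both. Each array held 41174 probes, of which 24186 were above background in at least 1 genotype. A single probe varied between the arrays with an SD of 0.136, and no probe of the 9 genes was saturated. Of 4 probes of the targeted gene Lats2, 3 went against the label and favoured the RNA labelled KO, with mean log2 ratios of 0.56, 0.56 and 0.63. These 3 lie close together on chromosome 14, between 56644080 and 56645305. The remaining probe, on the 5′ side of them at 56676512 to 56676571, gave -0.18 and -0.51, a mean of -0.35. Which part of Lats2 the knockout removes was not analysed here, so the probes do not settle the labels. All directions below therefore rest on the labels. Probe positions are those of the array files on the NCBI36 (mm8) build, and the exons or untranslated regions they lie in were not analysed here.

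Of the 9 genes, 1 was called higher (Masp1) and 0 were called lower, while over all 15877 genes above background 2.95% were called higher and 2.61% lower. With 6 of the 9 above background in both RNAs on each array (Masp1, Cd59a, C1r, C1s, C4b and C3), a single call is too few to set against those shares. Cd59a (log2 ratio of 0.92) and C1s (-0.97) lay just inside the 2-fold limits, C1r was at 0.39, and C4b and C3 were near 0. Cfb and Cd55 were not above background in either RNA, and Serping1 was so in only 1 channel of each array. Among the 18 probes 2 were called higher and 0 lower, beside 2.48% and 2.08% of all probes above background. The median over the 9 genes was 0.048, beside -0.0003 over all genes. The ratios of all 18 probes on each array are plotted by gene.

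**Figure D1:**
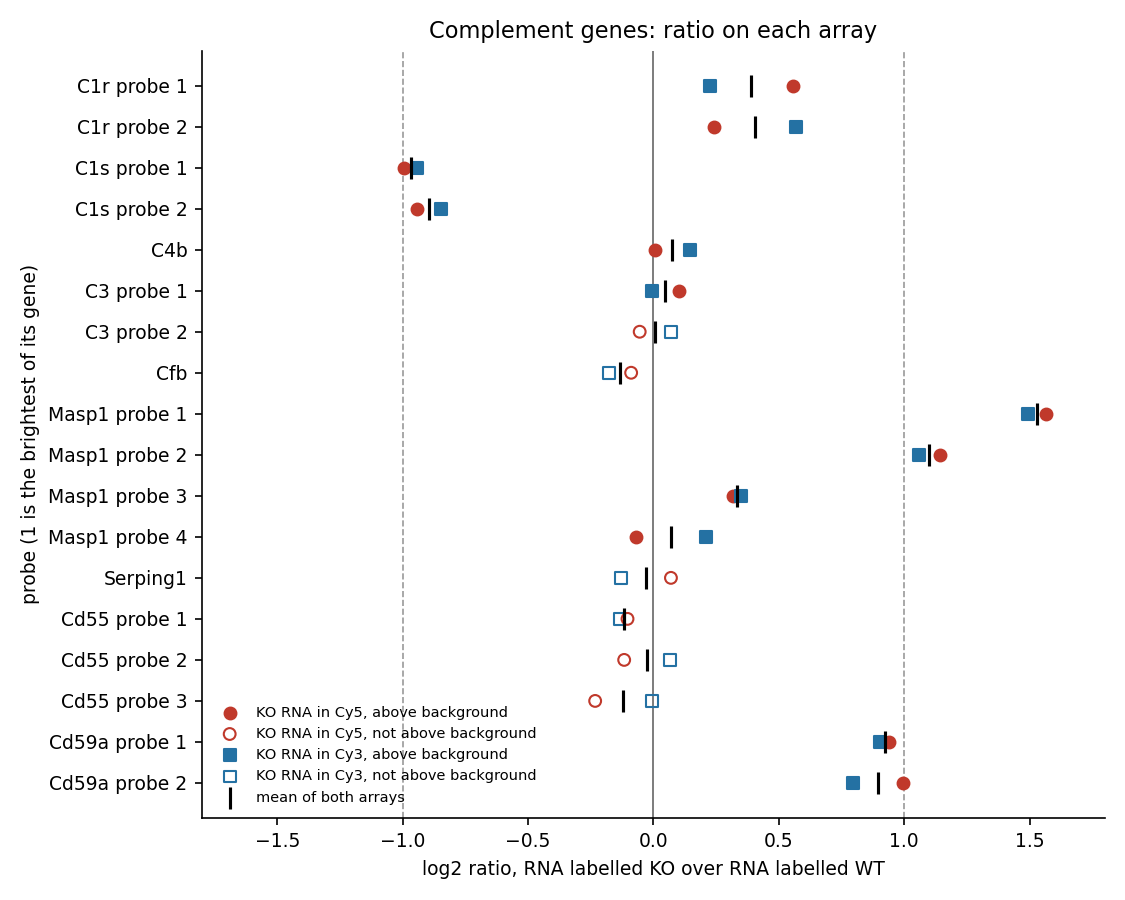
Log2 ratio of the RNA labelled KO over the RNA labelled WT (x axis) for the 18 probes of the 9 complement genes (y axis), with the KO RNA in Cy5 (circles) and in Cy3 (squares). Filled symbols are probes well above background on both arrays in at least 1 genotype, black ticks are means and dashed lines mark 2-fold. Of these probes 2 passed 2-fold on both arrays, both of Masp1.

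The cell cultures were checked against marker genes first. Of 12 fibroblast markers, 11 were measured and all 11 were above background in at least 1 genotype. With KO in Cy5 their summed normalised signal was 146149 units in the RNA labelled KO against 209801 in the RNA labelled WT. With KO in Cy3 it was 135133 against 210621. Their median log2 ratio was -0.41, with Postn at -1.69 called lower. Fn1, at 0.89, and Lum, at 0.16, went the other way, Col1a2 was at 0.001, and the rest were below 0. Albumin and 5 other of 7 hepatocyte markers were not above background, nor was any of 6 endothelial markers, and of 6 epithelial markers Krt5 and Krt14 were above it. Of 11 macrophage markers 6 were above background, namely Cd68, Csf1r, Fcer1g, Lyz1, Lyz2 and Cd14. Lyz2, at 1.10, was called higher and Cd14, at -1.05, was called lower. The summed signal of the macrophage list was 2297 units in the RNA labelled KO against 1689 in the RNA labelled WT with KO in Cy5. With KO in Cy3 it was 2268 against 1709. The other markers of that list, Ptprc, Adgre1, Aif1, Fcgr1 and Tyrobp, were not above background. The part of these shifts in the complement values was not tested. In such bulk RNA, fewer cells that express a gene and less RNA of it per cell cannot be told apart.

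The classical branch was described first, from the C1 complex. C1r, the protease that activates C1s, and C1s, the protease that cuts C4 and C2, sit next to each other on chromosome 6 on opposite strands, with probes 7.7 kb apart. In RefSeq the mouse genes are C1ra and C1s1. Their promoters (250 bases before to 50 after the start site, GRCm38.p6, written 5′ to 3′ on the strand of the gene) are shown because the genes are neighbours whose ratios had opposite signs. Capitals mark matches, on either strand, to 4 short motifs: CATTCC (TEAD factors, the DNA-binding partners of the Hippo effectors YAP and TAZ), TTCNNNGAA (STAT factors), TTGCNNAA (C/EBP factors) and the core of the interferon-stimulated response element, which is GAAA repeated after 2 bases. The first is C1ra at chr6:124512371-124512670 on the plus strand and the second is the upstream of the 2 C1s1 starts, at chr6:124542310-124542609 on the minus strand.
C1ra: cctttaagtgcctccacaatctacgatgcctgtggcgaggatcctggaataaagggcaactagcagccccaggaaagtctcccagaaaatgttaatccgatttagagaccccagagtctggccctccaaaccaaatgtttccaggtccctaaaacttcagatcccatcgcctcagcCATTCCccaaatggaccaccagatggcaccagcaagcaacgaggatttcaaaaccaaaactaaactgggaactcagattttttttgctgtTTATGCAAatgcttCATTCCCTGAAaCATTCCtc
C1s1: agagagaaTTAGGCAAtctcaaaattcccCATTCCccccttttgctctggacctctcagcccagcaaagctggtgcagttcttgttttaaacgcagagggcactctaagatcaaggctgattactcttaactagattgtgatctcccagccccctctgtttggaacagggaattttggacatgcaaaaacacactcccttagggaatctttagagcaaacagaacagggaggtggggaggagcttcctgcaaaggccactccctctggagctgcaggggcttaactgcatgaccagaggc

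The C1ra promoter held 3 TEAD matches, a STAT match that overlaps 1 of them and a C/EBP match, and this C1s1 promoter held 1 TEAD and 1 C/EBP match. The downstream C1s1 start held none of the 4 motifs. Among 32851 promoters of the same length in the table, 14.7% held the TEAD letters, 8.30% the STAT letters, 10.8% the C/EBP letters and 3.44% the interferon letters. The matches describe letters in these windows, and no binding was measured.

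For C1r the brightest probe (chromosome 6, 124488653 to 124488712) gave 6863 units in the RNA labelled KO (Cy5) and 1750 in the RNA labelled WT (Cy3) on the first array. With the dyes exchanged it gave 2589 (KO, Cy3) and 5586 (WT, Cy5). These are raw signals, in which Cy5 reads brighter than Cy3 on both arrays whatever the genotype, so only ratios after dye normalisation are compared. The log2 ratio was 0.56 on the first array and 0.22 on the second, a mean of 0.39 ± 0.23 (SD, n = 2 arrays), or 1.31-fold. The sign was the same on both arrays, and the arrays differed from each other more than for the other 8 genes.

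A dimmer probe that the arrays also name C1r lies 52.3 kb away (124540910 to 124540969) and is described in the files as C1rb, a closely related second copy. Its ratios were 0.24 and 0.57, a mean of 0.41 ± 0.23 (SD, n = 2 arrays). Thus both probes gave ratios above 0 on each array, below 2-fold. Transcripts of near-identical copies can bind the same probe, so the share of each copy is uncertain.

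C1s went the other way. Its brightest probe (chromosome 6, 124496429 to 124496488) gave 2164 units (KO, Cy5) against 1702 (WT, Cy3) on the first array and 894 (KO, Cy3) against 4326 (WT, Cy5) on the second. After normalisation the log2 ratios were -0.99 and -0.94, a mean of -0.97 ± 0.037 (SD, n = 2 arrays), which is 1.95-fold lower in the RNA labelled KO. A second probe 5′ to it in the gene (124497068 to 124497127) gave -0.94 and -0.85, with a mean of -0.90. All 4 values of C1s were thus below every value of C1r after loess, and none reached 2-fold. With median centring in place of loess the brightest probe of C1r gave 1.48 and -0.60 on the arrays and that of C1s -0.14 and -1.74, so the values overlapped across arrays while C1r was the higher on each. The ratio of C1r exceeded that of C1s by 1.55 on the first array and 1.17 on the second, on the log2 scale. The related gene C1s2, which the arrays list as EG317677, was at -0.24 ± 0.036 (SD, n = 2 arrays). Its probe was dim, and in the scanner software's own ratio it was at -0.91.

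C4b encodes C4, which C1s and MASP-2 cut and which then forms part of the C3 convertase. Its probe (chromosome 17, 34337472 to 34337531) gave log2 ratios of 0.01 and 0.14, a mean of 0.08 ± 0.098 (SD, n = 2 arrays). The probe was above background in all 4 channels, though dim, with raw signals between 60.6 and 92.5 units over backgrounds of 33 to 37. It is also listed for C4a, a near-identical copy, so it may read both, which was not tested. A probe of C4a alone was not above background.

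C3, on which all branches converge, was spotted 10 times on each array by its brighter probe (chromosome 17, 56889328 to 56889387), which allowed spots within an array to be compared. With KO in Cy5 the 9 usable spots ran from 0.01 through a median of 0.12 to 0.17, and all 9 were above 0. With KO in Cy3 the 10 spots ran from -0.16 through 0.0049 to 0.13, and 5 were above 0. The SD between spots was 0.059 on the first array and 0.086 on the second, and the mean of both arrays was 0.05 ± 0.077 (SD, n = 2 arrays). The signs of C3 thus differed between the arrays, and its mean was smaller than the SD between them. Raw signals of C3 were between 53.1 and 88.4 units over backgrounds of 30.6 to 38.2, so a difference would have been muted by the offset added before taking logs. A second C3 probe (56910450 to 56910607) was not above background in either genotype.

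Factor B (Cfb), the protease component of the alternative pathway convertase, was not above background in either RNA. Its probe (chromosome 17, 34464613 to 34464969) had raw signals of 33.8 to 50.2 units over backgrounds of 28 to 37, and no fold is given for it. It lies 127.1 kb from the C4b probe.

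**Figure D2:**
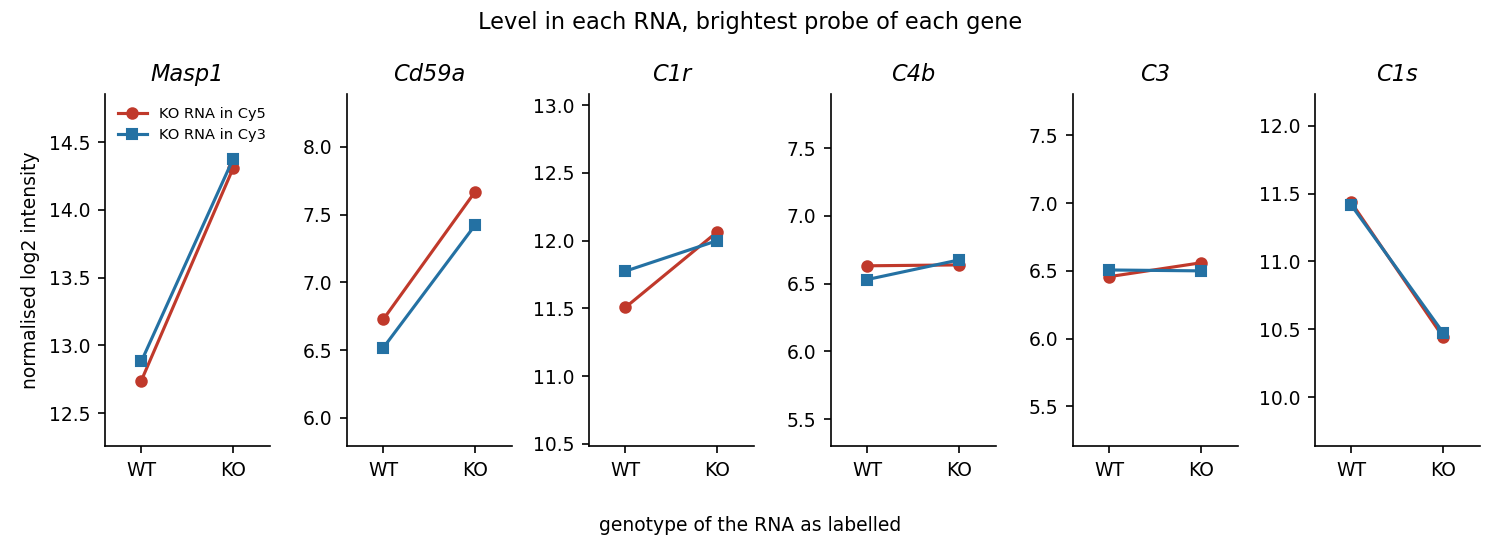
Normalised log2 intensity (y axis) in the RNA labelled WT and in the RNA labelled KO (x axis) for the brightest probe of the 6 genes above background, 1 line per array. Each panel spans the same range of the y axis around its own probe, because levels of different probes cannot be compared. The lines of Masp1 (a log2 ratio of 1.53) and Cd59a (0.92) slope up on both arrays, that of C1s (-0.97) slopes down, and those of C4b and C3 are near flat.

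Masp1 was the only 1 of the 9 genes that was called. It encodes, through alternative ends, the lectin pathway protease MASP-1, the protease MASP-3 that matures factor D, and a short form without protease activity. The brightest of its 4 probes (chromosome 16, 23383805 to 23383864, minus strand) gave 34165 units (KO, Cy5) against 3943 (WT, Cy3) on the first array and 13428 (KO, Cy3) against 12298 (WT, Cy5) on the second. Its log2 ratios were 1.57 and 1.49, a mean of 1.53 ± 0.051 (SD, n = 2 arrays), or 2.89-fold higher in the RNA labelled KO.

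The other Masp1 probes did not give the same ratio. The probe nearest the 3′ end of the gene, at 23364870 to 23364929, was 18.9 kb away from the brightest and gave 1.14 and 1.06, with a mean of 1.10 ± 0.058 (SD, n = 2 arrays), and also passed 2-fold on both arrays. A probe only 2.9 kb from it, at 23367721 to 23367780, gave -0.07 and 0.21, with a mean of 0.07, and its WT channel was above background on 1 array only. The probe nearest the 5′ end, at 23395094 to 23395153, gave 0.32 and 0.35, with a mean of 0.33. So 2 of the 4 probes were called and 2 were not, and the mean over all 4 was 0.74 on the first array and 0.78 on the second, below 2-fold. Which of the alternative transcripts each probe reads was not settled from the files.

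**Figure D3:**
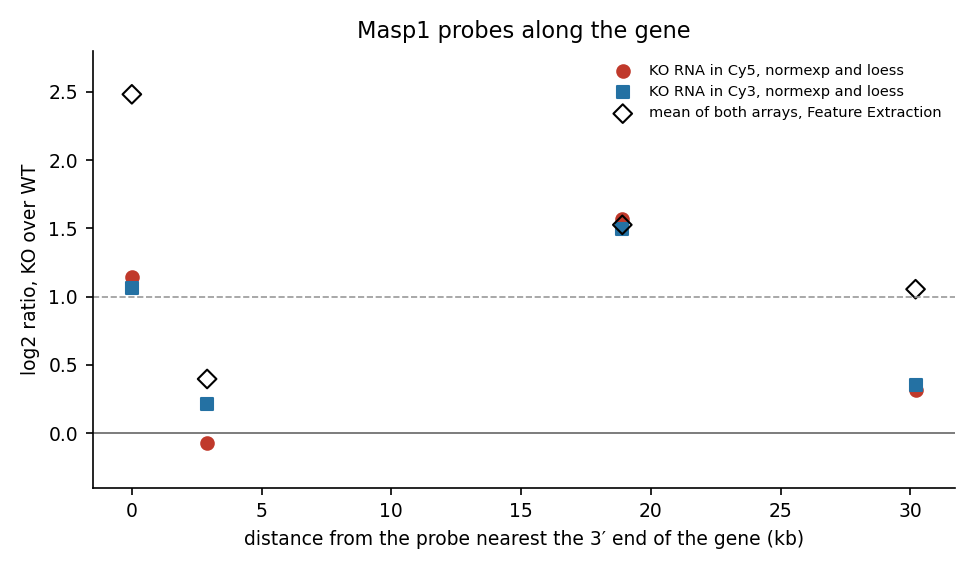
Log2 ratio of KO over WT (y axis) of the 4 Masp1 probes against their distance in kb from the probe nearest the 3′ end (x axis), on each array after normexp and loess (circles and squares) and as the mean of both arrays in the scanner software's own ratio (diamonds). The dashed line marks 2-fold. The probes at 0 and 18.9 kb lie above it and the probe at 2.9 kb lies near 0.

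The dim Masp1 probes moved with the processing more than the bright one. With an offset of 10 in place of 50 the brightest probe was at 1.54, the 3′ probe at 1.76, the 5′ probe at 0.64 and the remaining probe at 0.16. In the ratio of the scanner software (Agilent Feature Extraction), which also treats background and dyes differently, the brightest probe was at 1.53, whereas the 3′ probe was at 2.48, the 5′ probe at 1.05 and the remaining probe at 0.40. The call of Masp1 rested on loess, the removal of the dye effect that depends on intensity: with median centring in its place the brightest probe gave 2.62 and 0.63 on the arrays, so it was higher on both but past 2-fold on 1 only.

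The regulators differed in how far they could be measured. Cd59a encodes the membrane protein that blocks the pore of the terminal pathway, and the ratios of both its probes were above 0. The brighter (chromosome 2, 103915370 to 103915429) gave 238 units (KO, Cy5) against 61.3 (WT, Cy3) on the first array and 111 (KO, Cy3) against 93.7 (WT, Cy5) on the second. Its log2 ratios were 0.94 and 0.90, a mean of 0.92 ± 0.026 (SD, n = 2 arrays), or 1.90-fold. The other probe (103914852 to 103914911) gave 0.996 and 0.80, with a mean of 0.90, so the probes overlapped and neither was past 2-fold on both arrays.

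This ratio depended on how the background was treated, since Cd59a was dim in the RNA labelled WT. With an offset of 10 in place of 50 the brighter probe was at 1.38, without background subtraction at 1.14, and in the ratio of the scanner software at 1.96, with 2.01 and 1.92 on the single arrays. Cd59a was higher in the RNA labelled KO in every one of these, and it was called in each of them. Its paralog Cd59b was not above background.

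The Cd59a promoter (chr2:104095551-104095850, plus strand, GRCm38.p6) is shown because the gene came closest to the 2-fold limit from below. Capitals mark the interferon-stimulated response element core, 187 bases before the start site, the only match to the 4 motifs there.
Cd59a: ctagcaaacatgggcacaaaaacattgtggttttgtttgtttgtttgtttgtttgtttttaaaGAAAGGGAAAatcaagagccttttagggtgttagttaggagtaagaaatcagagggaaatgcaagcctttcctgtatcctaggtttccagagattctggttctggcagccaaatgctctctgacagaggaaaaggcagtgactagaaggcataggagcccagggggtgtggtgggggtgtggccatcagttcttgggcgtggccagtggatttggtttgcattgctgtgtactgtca

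Cd55, which takes apart the C3 convertases on the cell surface, had 3 probes on chromosome 1 and none was above background in either RNA. Their raw signals were 33.1 to 48.2 units over backgrounds of 28 to 39.5. Serping1, which encodes C1 inhibitor, the inhibitor of C1r, C1s and the MASPs, was above background in the Cy5 channel of each array only, that is in the RNA labelled KO on the first and in the RNA labelled WT on the second. Its probe (chromosome 2, 84566650 to 84568156) gave ratios of 0.07 and -0.13, and no fold is drawn from it. The RefSeq table also held promoters of C3, with 1 C/EBP match, and of Cd55, with none of the 4 motifs. It gave entries for 5 of the 9 genes, the others being Masp1, C4b, Cfb and Serping1.

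The wider complement system was then described with a list of 57 genes, the 9 above included, of which 55 were measured and 25 were above background in at least 1 genotype. The probe described as C1rb carries the name C1r, so C1rb was counted as not measured. On this list 2 genes were called higher (Masp1 and Cd93) and 2 were called lower (Clu and Colec10), beside 2.95% and 2.61% of all genes above background, and the median log2 ratio was -0.011. These counts are too small to set against those shares. By role, 6 of 9 measured classical initiators were above background and 0 were called. Of 8 lectin initiators 4 were above background, with 1 called higher and 1 called lower. The alternative pathway had 2 of 4 above background and the terminal pathway 1 of 6, with 0 called in both.

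**Figure D4:**
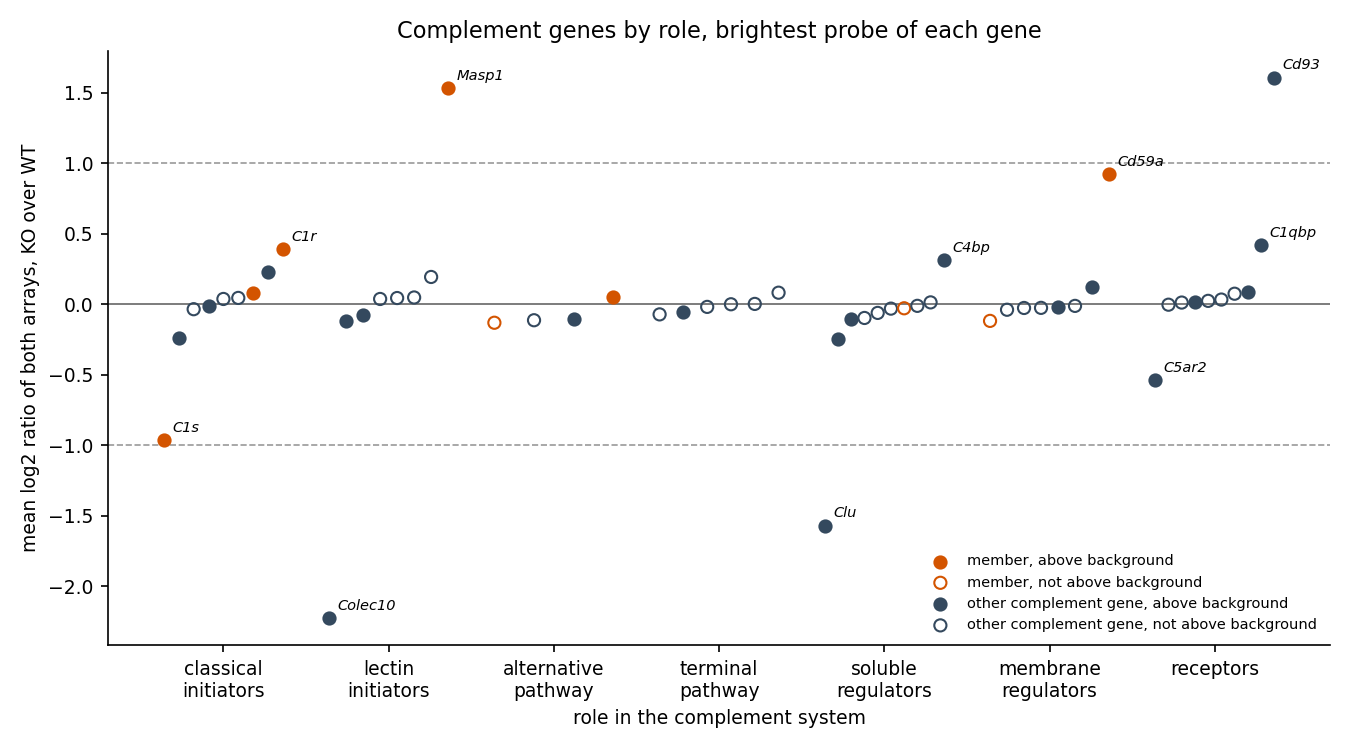
Mean log2 ratio of KO over WT over both arrays (y axis) for the brightest probe of 55 complement genes, grouped by role (x axis). Orange marks the 9 genes of the report and dark blue the others, open symbols are genes not above background, and dashed lines mark 2-fold. Colec10 and Clu lie below the lower line and Cd93 and Masp1 above the upper one.

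Within the classical group C2, the partner of C4 in the C3 convertase, was at 0.23 ± 0.16 and C1qb, a chain of C1q, at -0.01 ± 0.11 (SD, n = 2 arrays each). Among lectin genes Colec10, a collectin that recognises sugars and binds MASPs, had ratios of -2.27 and -2.19, a mean of -2.23 ± 0.054 (SD, n = 2 arrays), the lowest of the list. Within this branch Colec10 was thus called lower and Masp1 called higher in the RNA labelled KO, the latter with the exceptions given above. Masp2 was at -0.12 and Colec11, above background on both arrays in the RNA labelled WT only, at -0.08. Both probes were dim, and in the ratio of the scanner software Masp2 was at -0.47 and Colec11 at -0.81. C2, also dim, was at 0.68 in that ratio. Properdin (Cfp), which stabilises the alternative convertase, was at -0.11 ± 0.22, and C8g, a chain of the terminal component C8, at -0.06 ± 0.11 (SD, n = 2 arrays each).

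Among soluble regulators Clu, which encodes clusterin, a chaperone that binds the terminal complex, had ratios of -1.42 and -1.72, a mean of -1.57 ± 0.21 (SD, n = 2 arrays). Cpn2, a subunit of carboxypeptidase N, was at -0.25 by a dim probe, and at -0.62 in the ratio of the scanner software. The brighter probe of C4bp, the C4b-binding protein, was above background on both arrays in the RNA labelled KO and on neither in the other RNA. By this dim probe the level was at least 1.24-fold higher with KO, set against the lowest signal well above background. A second C4bp probe was not above background in either RNA. Among membrane regulators Cr1l, known as Crry and the main surface C3 regulator of rodents, was at 0.12. Susd4, above background on both arrays in the RNA labelled WT only, was at -0.02. Thus Cr1l and Susd4, the other surface regulators above background, lay close to 0, unlike Cd59a. Susd4 was dim, so a difference would have been muted by the offset.

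Among receptors Cd93, a surface lectin once named as a C1q receptor, gave 1.56 and 1.65, a mean of 1.61 ± 0.065 (SD, n = 2 arrays). A dimmer Cd93 probe gave 0.44 and 0.05, and when a gene's probes were averaged neither Cd93 nor Masp1 was called. C1qbp, a mitochondrial protein that also binds C1q, was at 0.42 ± 0.17, and C5ar2, the second C5a receptor, at -0.54 ± 0.12 (SD, n = 2 arrays each). Itgb2, a chain of the complement receptors of white blood cells, was at 0.08. Cr2, above background on both arrays in the RNA labelled WT only, was at 0.01. In the ratio of the scanner software the called genes kept their directions, with Colec10 at -3.38, Clu at -1.91 and Cd93 at 2.06, and C5ar2, at -1.49, and C4bp, which has only a bound, were called too. With median centring Clu and Masp1 were no longer called. The ratio of each of the 9 genes under every alternative is plotted together.

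**Figure D5:**
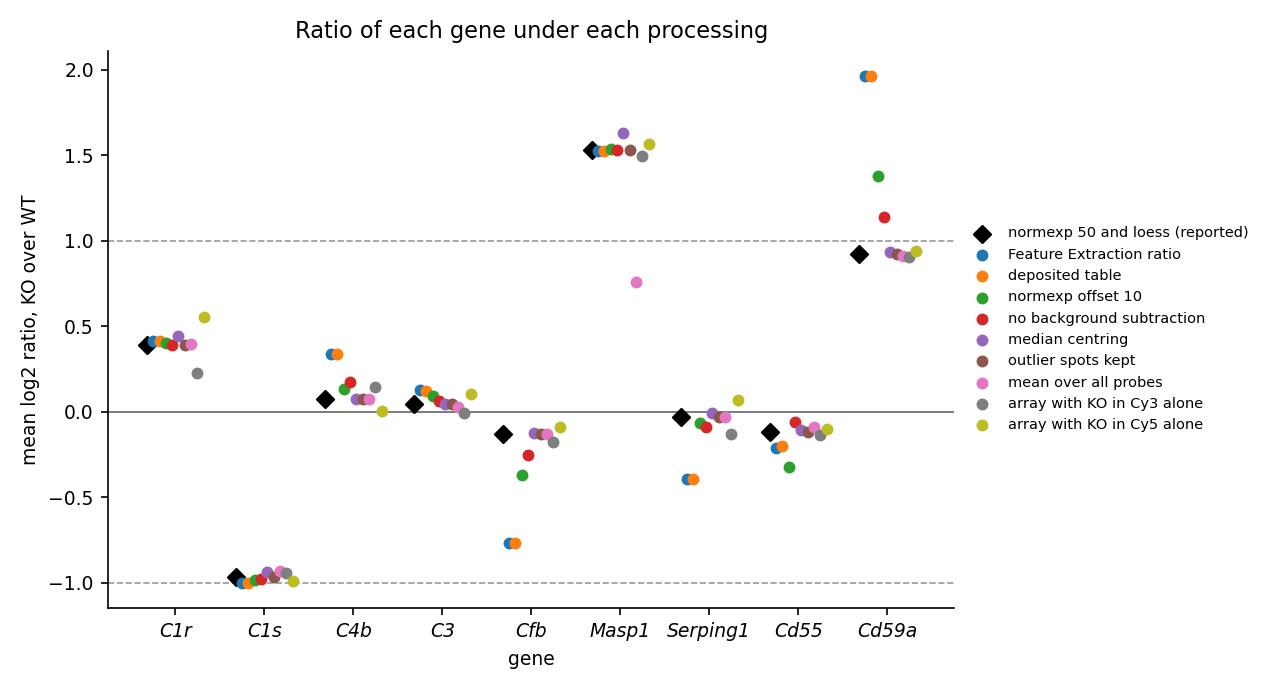
Mean log2 ratio of KO over WT (y axis) of each of the 9 genes (x axis) as reported (black diamonds) and under 9 alternatives (coloured circles), with dashed lines at 2-fold. C1s stays between -0.999 and -0.93, Cd59a runs from 0.90 to 1.96 and Masp1 from 0.76, the mean over its probes, to 1.63.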

How the data were processed

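Per the file headers and labels, total RNA was amplified and labelled by the authors with Cy3 or Cy5, and the arrays were read with Agilent Feature Extraction 10.5.1.1. The authors deposited the mean signal and local background median of each spot as intensity, Feature Extraction's log10 ratio of Cy5 over Cy3, and a table of log2 ratios, which matched log2 KO over WT from the processed signals on both arrays (within 0.01 for 100% of probes spotted once).

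Intensities were corrected in limma 3.58.1 (R 4.3.3) with normexp and an offset of 50, and each array was normalised by loess. Control spots (1639 of 45018) and outlier spots (390 and 378) were left out, spots of a probe were averaged, and the array with KO in Cy3 was turned. The offset pulls ratios of dim probes towards 0. A probe spotted repeatedly needed the flag for background in a share of 0.5 of its spots. The brightest probe stood for a gene, and each member, each list gene above background, Lats2 and the markers were named by rule, except that 1 list gene is counted and not reported here. The bound came from channel values after loess and Aquantile. Motifs were searched in RefSeq promoters (GRCm38.p6). Members and lists were chosen with earlier results of these data known. The calling was tested on simulated data. Tables were handled in pandas 2.3.3 (Python 3.11.15) with scipy 1.17.1 and drawn with matplotlib 3.10.9. Alternatives were the other ratios and tables, another offset, no background subtraction, median centring, kept outliers, all probes of a gene, other background filters, single arrays, the methods' t-test and limma's test.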

Additional observations from a re-analysis of the deposited data

How the results depend on the processing

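No paired analysis was possible because the labels give 1 replicate of each genotype. The t-test and limma's test below took the arrays of the dye swap as replicates. Their spread therefore covers hybridisation and dye error only, not differences between animals or cultures. Feature Extraction's own ratio and the deposited table gave 1280 probes called higher and 1220 lower in place of 599 and 503, median centring gave 321 and 169, and the methods' t-test after Benjamini-Hochberg gave 0 and 0 (the same test at a threshold of 0.05 without that adjustment gave 524 and 443, and limma's test 662 and 598). Members called higher numbered 2 with the deposited table, Feature Extraction's ratio, an offset of 10 and no background subtraction, the added gene being Cd59a, and 0 with median centring, with the mean over all probes and with the adjusted t-test. No member was called lower under any alternative. Complement genes called higher numbered 4 with the deposited table and Feature Extraction's ratio (C4bp and Cd59a were added), 1 with median centring, and 0 with the mean over all probes and the adjusted t-test. Those called lower numbered 1 with median centring, 1 with the methods' t-test and 0 with the adjusted t-test. The median over the members, 0.048, was 0.126 with Feature Extraction's ratio, 0.119 with the deposited table and 0.233 over members above background in both genotypes, and -0.0066 and 0.0701 on the single arrays. That over the complement list, -0.011, was -0.0352, -0.0343, -0.0286 without background subtraction, 0.0078 with median centring, -0.0197 over all probes, and -0.008 and 0.0013 on the single arrays. Of 81 recomputed values of the members 2 had the opposite sign, 1 of C3 and 1 of Serping1, both on a single array. Counts over a single array were within 1.5 times the reported ones. The array with KO in Cy5 gave 715 probes higher and 584 lower, and that with KO in Cy3 gave 670 and 666. The cause of these shifts was not tested.

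The number of arrays limits the precision of every value. C3 and C4b were close to the background, and C4b was at 0.08 as reported, 0.13 with an offset of 10, 0.18 without background subtraction and 0.34 in Feature Extraction's ratio. Cfb, Cd55 and Serping1 give no fold at all.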

Other observations

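The surroundings of C1s were looked at after its ratio had been seen. Within 250 kb of its probe on chromosome 6 there were 15 other genes above background, 12 with a mean log2 ratio above 0 and 3 below it. Of these 0 were called, beside 2.95% called higher and 2.61% called lower among all genes above background, whose median was -0.0037. So few genes cannot be set against those shares. C1s, at -0.97, was the lowest of all, the next being C1s2 (listed as EG317677) at -0.24. The C1s2 probe was dim, so the size of this gap depended on the processing. In Feature Extraction's ratio C1s2 was at -0.91 and C1s at -0.999. C1rl, a relative of C1r that lies 23.7 kb from C1s, gave 0.62 and 0.55 on the arrays, with a mean of 0.58, and Eno2, the neuronal enolase, was the highest at 0.92. Around Masp1, St6gal1, a sialyltransferase 108.5 kb away, gave 0.82 and 0.49 and Rtp4, an interferon-inducible gene 145.1 kb away, gave -0.53 and -0.35.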
